A study of Mus musculus with 6 samples.

Results

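Effector T helper cytokines are the secreted proteins by which activated CD4 T cells direct other immune cells. Their RNAs were read here in aTreg, the adaptive regulatory T cells that acquire the transcription factor Foxp3 when activated in the presence of TGF-beta. The members are 10 cytokine genes listed by symbol, out of 25759 gene identifiers in the table, and all 10 were found: Ifng, Tnf, Il2, Il4, Il9, Il13, Il17a, Il21, Il22 and Csf2. They were chosen by name and not by a cut on their values, though with earlier results of these data known.

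All 6 libraries came from C57BL/6 mice aged 8 to 12 weeks that carry a Foxp3-GFP reporter transgene. Lymph node and spleen cells were kept in culture for 3 days. The culture held IL-2 (10 ng/ml), TGF-beta (3 ng/ml) and, as the stimulus, the lectin concanavalin A (2 µg/ml). Cells positive for CD4 and Foxp3-GFP were then sorted by flow cytometry. The 3 wild type (WT) libraries came from normal reporter mice, for which the labels name no Cre. The 3 BMPR1a-deficient libraries came from BMPR/CD4cre mice, in which Cd4 sequences drive the recombinase, so that the bone morphogenetic protein receptor is lost in T cells as a whole and not in aTreg alone. The labels do not say whether libraries of a group came from separate animals, so the spread behind each p-value is that of these samples and may be technical.

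T helper cells are classed by the cytokines they make. Interferon gamma marks Th1 cells, interleukins 4 and 13 mark Th2 cells and interleukin 9 marks Th9 cells. Interleukins 17A and 22 are made by Th17 cells, and interleukin 21 by Th17 and follicular helper cells. TNF, IL-2 and GM-CSF, the product of Csf2, are made by several of these lineages. Foxp3 is known to hold effector cytokine genes, Il2 above all, at low expression in regulatory T cells. Cytokine messages are also kept short-lived by AU-rich elements in the 3' untranslated region, which are bound by RNA-binding proteins such as tristetraprolin, the product of Zfp36.

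Values are FPKM, the authors' fragment numbers scaled by transcript length and by library depth, so they may be compared between genes. Judged from the smallest steps in the values, 1 FPKM over 1 kilobase stood for about 30.3 to 38.1 fragments, depending on the library. Bmpr1a (chr14:34410734-34503341, minus strand, GRCm38) lay at 1.39, 2.34 and 1.31 FPKM in WT and at 0.439, 0.720 and 0.691 in BMPR1a-deficient aTreg, so its groups did not overlap in the labelled direction. Of all genes tested, 10.4% had every deficient library below every WT library. The log2 fold change of Bmpr1a was -0.71, which did not pass an adjusted p under 0.05 (limma adjusted p = 0.183). The T cell genes Cd3g, Cd3d, Cd4 and Cd3e lay between 118 and 549 FPKM in every library, and Foxp3 between 49.4 and 96.9. BMPR1a-deficient replicate 1 stood apart: its 13 mitochondrially encoded transcripts summed to 5335 FPKM, against 44657 to 53788 in the other 5 libraries. Values without that library are given below for the cytokines and for some other genes.

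A feature that the choice by name did not use is the AU-rich element. All 10 cytokine genes held at least 1 copy of the heptamer TATTTAT, the core to which tristetraprolin binds, in the 3' untranslated region of the longest coding transcript (GENCODE M21, GRCm38). This heptamer contains the AU-rich pentamer ATTTA, and overlapping copies were each counted on the transcribed strand only. Among 3' untranslated regions of other tested genes, read over the same length as each cytokine's own, between 1.43% and 45.5% held 1 or more. Csf2 had 9 copies in 317 bases, and 0 of 8444 other genes had as many in that length. Tnf had 8 copies in 764 bases, a number reached by 0.047% of 6380 other genes. Ifng and Il22 had 4 copies each, Il17a and Il2 had 3 each, and Il4, Il9 and Il21 had 2 each. Il13 had 1 copy in 741 bases, where 17.1% of other genes also had at least 1. The sites below, of 30 bases each and with every ATTTA in capitals, show the range from the tandem repeats of Tnf and Csf2 to the single heptamer of Il13.
Tnf (chr17:35199678-35199707, minus strand): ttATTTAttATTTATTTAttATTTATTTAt
Csf2 (chr11:54247328-54247357, minus strand): ttttaaatATTTATTTATTTATTTATTTAt
Ifng (chr10:118445331-118445360, plus strand): acctATTTAttaatATTTAaaactATTTAt
Il17a (chr1:20734192-20734221, plus strand): gtaaagcctatATTTAtatgagctATTTAt
Il2 (chr3:37120909-37120938, minus strand): gttttaaactATTTAtctgaaattATTTAt
Il13 (chr11:53631733-53631762, minus strand): atcttATTTAttatggttgtgtgttATTTA
The pentamers run into one another in Csf2 and Tnf and stand apart in the other 4 genes. A match is a description of the letters and does not show binding in these cells.

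**Figure D1:**
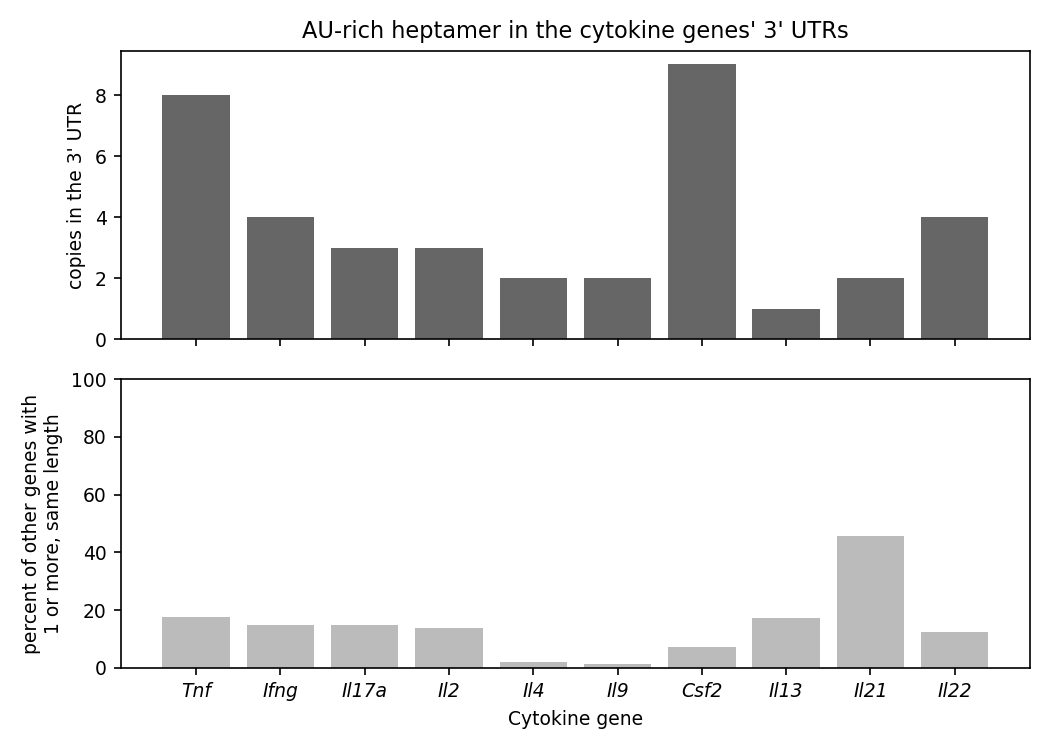
Copies of the AU-rich heptamer in the 3' untranslated region of each cytokine gene (upper bars, count) and the percent of other tested genes with 1 or more copies in a 3' untranslated region read over the same length (lower bars). Csf2 and Tnf had the most copies, 9 and 8, and each of the 10 genes had at least 1.

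The 250 bases before each gene's start (RefSeq sequences, GRCm38.p6, matched for all 10 genes) were searched on both strands. The motif GGAAA, the core contacted by NFAT and also by ETS factors, was present in 9 of the 10 and in 55.6% of 32851 promoters, and 3 or more copies were present in 5 of the 10 and in 6.39% of promoters. TATAAA, which is typical of core promoters with a TATA box, was present in 6 of the 10 and in 12.4% of promoters. TGANTCA, a looser pattern than the AP-1 consensus TGA(C/G)TCA, was present in Il9 and Il17a and in 6.75% of promoters. The match was TGACTCA in Il9 and TGAATCA in Il17a, so that of Il17a lay outside the consensus. A match of one motif was allowed to overlap a match of another. The start in the table lay 232 bases from the GENCODE start for Csf2 and at most 22 bases from it for the others. These 4 windows, with GGAAA or its complement TTTCC in capitals, are shown because they span 1, 3, 5 and 0 copies.
Ifng (chr10:118440796-118441045, plus strand): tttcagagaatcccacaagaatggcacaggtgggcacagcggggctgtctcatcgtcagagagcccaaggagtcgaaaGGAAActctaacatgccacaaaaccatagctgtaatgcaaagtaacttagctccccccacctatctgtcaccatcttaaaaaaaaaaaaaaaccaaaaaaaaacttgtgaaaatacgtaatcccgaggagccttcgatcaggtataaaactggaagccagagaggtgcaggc
Tnf (chr17:35202008-35202257, minus strand): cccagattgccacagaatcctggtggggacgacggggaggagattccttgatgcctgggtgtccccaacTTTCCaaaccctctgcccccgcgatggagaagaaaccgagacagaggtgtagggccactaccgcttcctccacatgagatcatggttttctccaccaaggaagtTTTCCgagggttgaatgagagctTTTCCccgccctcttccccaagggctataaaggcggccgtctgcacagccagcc
Il4 (chr11:53618666-53618915, minus strand): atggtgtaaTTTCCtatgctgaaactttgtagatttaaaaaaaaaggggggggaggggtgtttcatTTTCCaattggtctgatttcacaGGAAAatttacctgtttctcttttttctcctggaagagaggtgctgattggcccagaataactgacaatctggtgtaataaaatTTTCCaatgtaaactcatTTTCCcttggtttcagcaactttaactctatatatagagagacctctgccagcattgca
Il17a (chr1:20730655-20730904, plus strand): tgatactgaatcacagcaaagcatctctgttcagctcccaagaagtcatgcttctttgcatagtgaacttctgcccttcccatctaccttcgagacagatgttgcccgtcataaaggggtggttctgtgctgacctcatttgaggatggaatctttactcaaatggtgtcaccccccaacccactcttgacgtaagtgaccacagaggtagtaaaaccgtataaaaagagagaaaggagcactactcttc
Ifng and Tnf, with 1 and 3 copies, were the members with the highest levels, and Il17a, with 0 copies, came next.

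The effector cytokines were at low levels in aTreg of both genotypes. Their mean over the 6 libraries was at least 1 FPKM for Tnf, Ifng, Il17a and Il2, and under 1 FPKM for Il4, Il9, Csf2, Il13, Il21 and Il22. Only Tnf and Ifng reached 1 FPKM in all 6 libraries. Il2 did so in 5, Il17a in 4, Il4 in 2 and Il9 in 1, while Csf2, Il13, Il21 and Il22 were under 1 FPKM in every library. A value of 1 FPKM lay between the percentiles 39.6 and 40.8 of 17281 protein-coding genes, depending on the library.

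Summed over the 10 genes, the cytokines came to 12.1, 15.4 and 12.5 FPKM in WT and to 8.96, 17.3 and 18.8 in BMPR1a-deficient aTreg. The 2 groups overlapped, with the lowest and the highest sum both in the BMPR1a-deficient group. Tnf and Ifng together made up 65.7%, 50.7% and 57.7% of the sum in WT; in the deficient libraries their share was 79.7%, 67.2% and 81.6%.

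**Figure D2:**
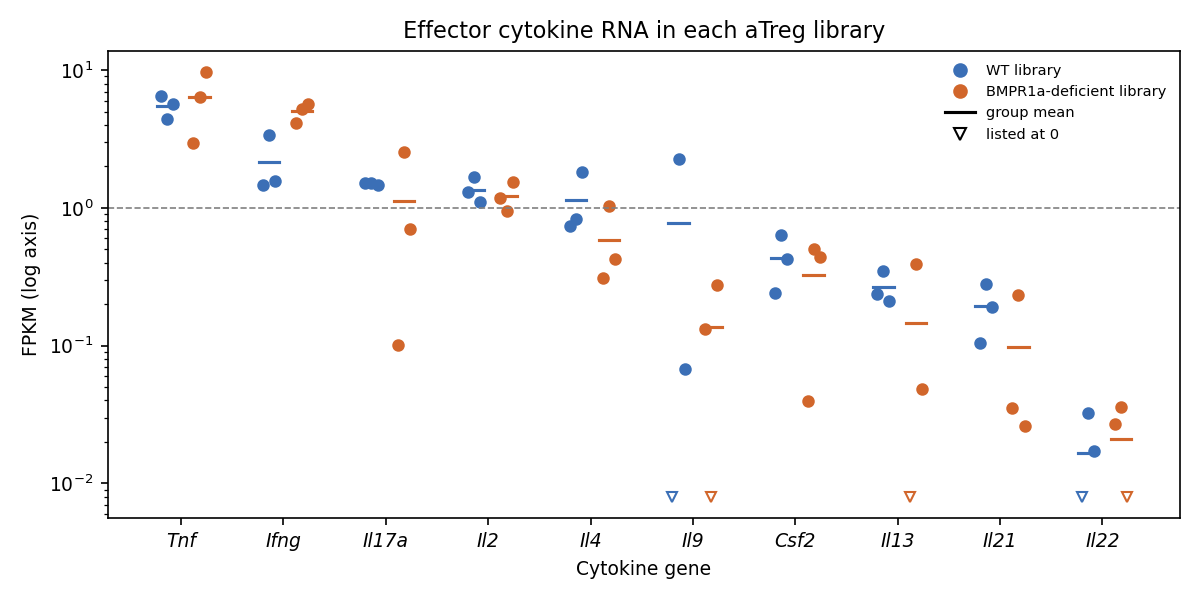
FPKM (log axis) of the 10 cytokine genes in each library, in order of their mean; points are libraries, short lines are group means and open triangles mark values listed at 0. The dashed line is 1 FPKM, and Tnf and Ifng are the genes above it in all 6 libraries.

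Neighbours in the order of levels were often not separated. Tnf was above Ifng in 5 of 6 libraries and Ifng above Il17a in 5. Il17a was above Il2 in only 3 of 6, Il2 above Il4 in 4 and Il4 above Il9 in 5. Il9 exceeded Csf2 in only 2 libraries although its mean was higher. Lower down, Csf2 was above Il13 in all 6, Il13 above Il21 in 5 and Il21 above Il22 in all 6.

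Of the cytokine genes, 4 passed the filter of a mean of at least 1 FPKM and were tested, and 0 of these passed the threshold of an adjusted p under 0.05 in limma, in either direction. Over all 13413 genes tested the same threshold was passed by 1.07%, with 0.746% higher and 0.321% lower in BMPR1a-deficient aTreg. At an unadjusted p under 0.05 there was 1 cytokine gene, Ifng, against 15.2% of all genes tested. Without the filter all 10 were tested and 0 passed (limma), beside 0.658% of 24025 genes. In data simulated for this comparison on the 13413 genes, limma called 48% of the genes of 1 to 10 FPKM that had been changed by log2 1, and 86% of those changed by log2 2. These changes were added to log2(FPKM + 1), on which a doubling of a low gene is smaller than log2 1. The noise was alike in all 6 libraries, with none standing apart as BMPR1a-deficient replicate 1 does. The shares therefore do not give the recovery of a doubling in the lowest tested members.

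**Figure D3:**
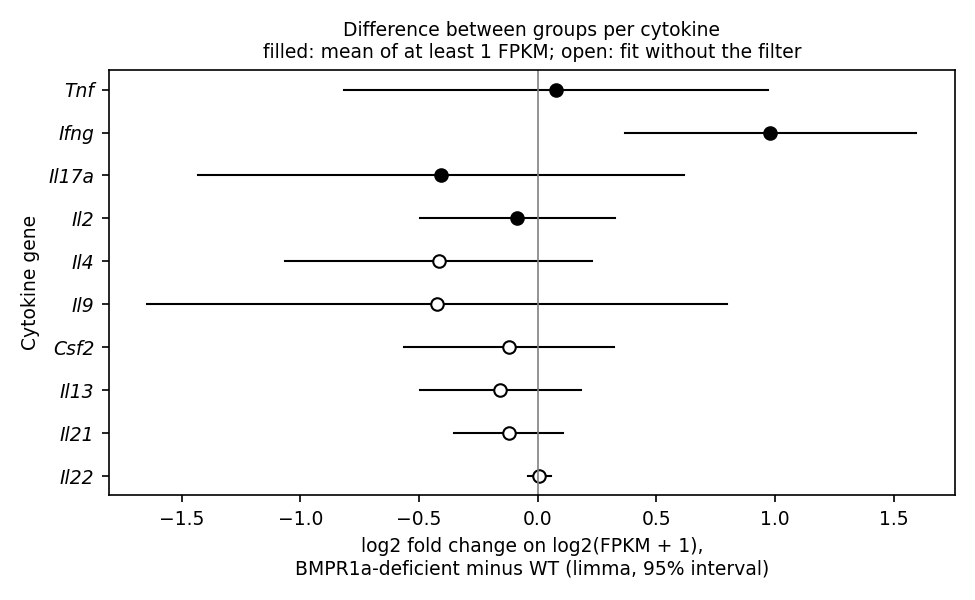
Log2 fold change of each cytokine gene, computed as BMPR1a-deficient minus WT from log2(FPKM + 1), with the 95% interval from limma; filled points passed the filter on low values and open points are from the fit without it. The interval of Ifng lies above 0 before adjustment over all genes, and the other 9 intervals include 0.

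Ifng (chr10:118441046-118445892, plus strand, GRCm38 as for all positions here), the Th1 cytokine that activates macrophages, was the 1 member whose groups did not overlap. It lay at 1.47, 3.38 and 1.57 FPKM in WT and at 4.16, 5.23 and 5.64 in BMPR1a-deficient aTreg, or about 54, 127 and 72 fragments against 181, 203 and 251. WT replicate 2 stood above the other WT libraries and nearer to the deficient ones. The means were 2.14 ± 1.07 and 5.01 ± 0.764 FPKM (SD, n = 3 per group), a ratio of 2.34. The log2 fold change was 0.98 (SE 0.252, 95% interval 0.37 to 1.60), which missed the threshold once adjusted over all genes tested (limma adjusted p = 0.160). An exact two-sided permutation test gave p = 0.1, the smallest that 3 against 3 libraries allow. Among all genes tested 26.3% had groups that did not overlap, 15.9% with every deficient library above every WT library. With sample weights, which gave BMPR1a-deficient replicate 1 a weight of 0.117 and replicate 2 one of 4.18, Ifng passed (log2 fold change 1.18, limma adjusted p = 0.0162), in a fit that called 9.24% of all genes tested (6.21% higher in deficient aTreg). Over the 16 alternatives that tested Ifng the adjusted p ran from 0.0162 to 0.485, and leaving out BMPR1a-deficient replicate 1 gave 1.09 (limma adjusted p = 0.155).

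Markers of cells that make much interferon gamma were measured beside it. The CD8 T cell genes Cd8a and Cd8b1 summed to 32.0 to 41.8 FPKM in WT and to 37.9 to 68.4 in BMPR1a-deficient aTreg. Cd8a alone was at 11.7, 9.56 and 8.80 FPKM in WT and at 13.8, 17.2 and 29.1 in the deficient libraries. Cd8b1 was at 30.1, 23.1 and 23.2 FPKM in WT and at 24.1, 26.9 and 39.3 in the deficient libraries, with overlapping groups. Neither gene passed the threshold (limma adjusted p = 0.236 for Cd8a and 0.634 for Cd8b1). Of the 6 natural killer and innate lymphoid cell markers, Ncr1, which defines NK cells, was listed at 0 in 5 libraries and at 0.0222 FPKM in BMPR1a-deficient replicate 2. Klrb1c, the NK1.1 gene, was at 0.0692 to 0.126 FPKM in WT and 0.598 to 0.760 in deficient aTreg, which is under the filter on low values. Kit, which is also a mast and progenitor cell gene, was the 1 tested marker of this list and passed the threshold (limma adjusted p = 0.0462). Without the filter Klrb1c passed (limma adjusted p = 0.0211) and Kit did not (limma adjusted p = 0.0797). The list summed to 6.26 to 13.5 FPKM in WT and 30.7 to 51.7 in deficient aTreg, nearly all of it Kit. The 4 gamma delta T cell markers found, genes of cells that make interferon gamma and interleukin 17A, summed to 1.91 to 3.16 FPKM in WT and 4.41 to 5.44 in deficient aTreg, groups that did not overlap. Sox13, a factor of these cells, was at 0.0203, 0.0394 and 0.00803 FPKM in WT and at 0.457, 0.269 and 0.302 in deficient aTreg. Tcrg-C2, a constant region of their receptor, was at 0.148 to 0.290 FPKM in WT and 0.555 to 1.10 in deficient aTreg, while the groups of Tcrg-C1 overlapped. Blk made up most of each sum, at 1.22, 1.99 and 3.00 FPKM in WT and 3.09, 3.50 and 3.65 in deficient aTreg. It was the 1 tested and did not pass (limma adjusted p = 0.325). B cells also express Blk, and the 5 B cell markers summed to 25.4 to 50.5 FPKM in WT and 35.2 to 49.6 in deficient aTreg. The part of CD8, natural killer, innate lymphoid or gamma delta T cells in the Ifng values was not tested. In bulk libraries, more cells of a type and more RNA per cell cannot be told apart.

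By the root mean square difference of centred log2(FPKM + 1) over the 6 libraries, the gene whose profile lay nearest to Ifng among 9989 protein-coding genes was Rgs1, a regulator of G protein signalling, at 34.4, 49.5 and 29.9 FPKM in WT and 75.5, 72.1 and 82.4 in deficient aTreg (difference 0.14). The second was Aqp11, a water channel gene, with a difference of 0.17. Both were picked for their likeness to Ifng, so the higher value of WT replicate 2 that they share with it adds nothing.

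Tnf (chr17:35199381-35202007, minus strand), the inflammatory cytokine made by T cells and by myeloid cells, had the highest mean of the 10. It was at 6.48, 4.43 and 5.63 FPKM in WT and at 2.98, 6.42 and 9.70 in BMPR1a-deficient aTreg. The deficient group held both the lowest and the highest library, so the groups overlapped. The log2 fold change was 0.08 (SE 0.366, 95% interval -0.82 to 0.97, limma adjusted p = 0.927), and its sign turned without WT replicate 2 (-0.05) and without BMPR1a-deficient replicate 3 (-0.25). Without BMPR1a-deficient replicate 1 it was 0.46.

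The order of the libraries for Tnf was, in each group, the order of the 6 monocyte and macrophage markers. Their sum was 120.4, 25.1 and 51.2 FPKM in WT and 13.7, 51.0 and 101.5 in deficient aTreg. Lyz2, the lysozyme gene of myeloid cells, was at 84.5, 14.5 and 30.9 FPKM in WT and at 8.71, 35.6 and 72.8 in deficient aTreg, and Cd14 at 12.8, 3.42 and 6.26 and at 0.833, 3.60 and 8.51. None of the 6 markers was at 0 in any library, and 0 of them passed the threshold between groups (limma, with 0 at an unadjusted p under 0.05). The 4 neutrophil markers summed to 1.29 to 24.2 FPKM in WT and 6.68 to 127.9 in deficient aTreg. Most of each sum was S100a8 and S100a9, while Ly6g and Mpo were at most 0.350 and 0.0749 FPKM in any library. The genes with the profiles nearest to Tnf were Ccrl2, an atypical chemokine receptor gene (difference 0.12), and Mpeg1, which encodes the perforin-like protein of macrophages (difference 0.12). Mpeg1 was at 11.4, 7.08 and 9.11 FPKM in WT and 4.13, 8.85 and 15.4 in deficient aTreg. It was picked for its likeness to Tnf, so its order adds nothing to that of the markers. The part of myeloid RNA in the Tnf values was not tested.

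Il2 (chr3:37120523-37125959, minus strand), the growth factor of activated T cells, was the most even of the tested members. It was at 1.30, 1.66 and 1.10 FPKM in WT and at 1.18, 0.943 and 1.54 in deficient aTreg, about 35 to 65 fragments per library. The groups overlapped, with a log2 fold change of -0.09 (SE 0.168, 95% interval -0.50 to 0.33, limma adjusted p = 0.820). Its sign turned without WT replicate 2 and without BMPR1a-deficient replicate 2, to 0.01 in each case. IL-2 protein was also added to these cultures. The profiles nearest to Il2 were those of Nudt2 and Tspan5, with differences of 0.05 and 0.07.

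Il17a (chr1:20730905-20734496, plus strand), the Th17 cytokine that acts on epithelial and stromal cells, was even in WT and uneven in deficient aTreg. It was at 1.53, 1.51 and 1.46 FPKM in WT and at 0.101, 2.55 and 0.699 in BMPR1a-deficient aTreg, or about 54, 55 and 65 fragments against 4, 96 and 30. Replicate 1 of the deficient group was the lowest and replicate 2 the highest of all 6, so the WT values lay inside the deficient range. The log2 fold change was -0.41 (SE 0.419, 95% interval -1.43 to 0.61, limma adjusted p = 0.646). It was -0.02 without BMPR1a-deficient replicate 1 and -0.87 without replicate 2 of that group, and with sample weights it turned to 0.10. With a smaller pseudocount it was further from 0, at -0.62 with 0.5 and -1.09 with 0.1 (limma adjusted p = 0.615 and 0.581).

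Il17f, which lies next to Il17a on chromosome 1 and encodes its closest relative, was at 2.04, 1.21 and 1.33 FPKM in WT and at 0.176, 3.78 and 0.997 in deficient aTreg. Its profile was the second nearest to that of Il17a (difference 0.21), after Platr17 (difference 0.18). The deficient libraries stood in the same order for both cytokines.

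Il21 and Il22, the other members that Th17 cells make, were lower still. Il21 (chr3:37222759-37232636, minus strand) was at 0.105, 0.282 and 0.192 FPKM in WT and at 0.0353, 0.232 and 0.0258 in deficient aTreg, about 3 to 27 fragments. Its log2 difference was -0.12, and -0.08 without BMPR1a-deficient replicate 1. Replicates 1 and 3 of the deficient group lay below every WT library. Il22 (chr10:118204942-118210047, plus strand) was listed at 0 in WT replicate 1 and BMPR1a-deficient replicate 3 and at 0.0172 to 0.0356 FPKM in the other 4 libraries, which stands for about 1 fragment in each. Its neighbour and near copy Iltifb was at 0.0469, 0.136 and 0.0475 FPKM in deficient aTreg and, in WT, at 0 in replicates 1 and 2 and 0.0086 in replicate 3, so that its groups did not overlap (limma without the filter, adjusted p = 0.317). How reads were divided between these 2 genes is uncertain, so the Il22 values alone neither show nor exclude a difference at this depth.

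The Th2 cytokines were near or under 1 FPKM. Il4 (chr11:53602982-53618669, minus strand), which drives Th2 differentiation and antibody class switching, was at 0.740, 0.834 and 1.82 FPKM in WT and at 0.309, 1.03 and 0.425 in deficient aTreg. WT replicate 3 was the highest, and the groups overlapped. Il13 (chr11:53631324-53634702, minus strand), which acts on epithelium and macrophages, was at 0.236, 0.350 and 0.211 FPKM in WT, was listed at 0 in BMPR1a-deficient replicate 1 and was at 0.388 and 0.0483 in replicates 2 and 3. Without the filter on low values the log2 fold changes were -0.42 (95% interval -1.06 to 0.23, limma adjusted p = 0.552) for Il4 and -0.16 (-0.50 to 0.18, limma adjusted p = 0.660) for Il13. Without BMPR1a-deficient replicate 1 they were -0.29 and -0.07.

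Basophils and mast cells also make interleukins 4 and 13. Their 6 markers summed to 3.16, 3.30 and 4.55 FPKM in WT and to 1.86, 6.83 and 4.73 in deficient aTreg, which is the order of the Il4 values within each group. Mcpt8, the basophil protease gene, was at 1.70, 1.84 and 2.49 FPKM in WT and at 0.729, 3.74 and 1.79 in deficient aTreg, in that same order. Other markers of the list did not follow it: Cpa3 and Ms4a2 were highest in replicate 3 of the deficient group, and Cpa3, Ms4a2 and Fcer1a were lowest in replicate 2 of the WT group. Fcer1a and Ms4a2, chains of the IgE receptor that define these cells, were at most 0.302 FPKM in any library. The part of basophil RNA in the Il4 values was not tested.

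Il9 (chr13:56479277-56482246, minus strand), the cytokine of Th9 cells and mast cells, was above 1 FPKM in 1 library. WT replicate 2 was at 2.27 FPKM, about 38 fragments, and the other 5 libraries were at 0 to 0.274 FPKM, about 0 to 5 fragments. The log2 difference between the groups was -0.42 with all libraries and 0.13 without WT replicate 2, so its direction rested on that library. Csf2 (chr11:54247271-54249667, minus strand), which encodes the myeloid growth factor GM-CSF, was at 0.243, 0.636 and 0.425 FPKM in WT and at 0.0395, 0.503 and 0.437 in deficient aTreg. Apart from the low replicate 1, the deficient libraries lay within the WT range, and the log2 difference turned from -0.12 with all libraries to 0.04 without it.

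Read across genes, BMPR1a-deficient replicate 1 was below every WT library in 6 of the 10 members: Tnf, Il17a, Il4, Csf2, Il13 and Il21. Il4, Csf2, Il13 and Il21 were under the filter on low values and so not among the genes tested. Of the tested members, Tnf and Il17a were below every WT library there and Ifng and Il2 were not. The same held for 41.0% of all genes tested, a share that does not cover genes under the filter. Ifng went the other way and was above every WT library there. The mean of the deficient group was higher than that of WT for 3 members and lower for 7 with all libraries, and higher for 5 without that replicate. The low mitochondrial sum of this library is given above, and its part in these values was not tested.

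**Figure D4:**
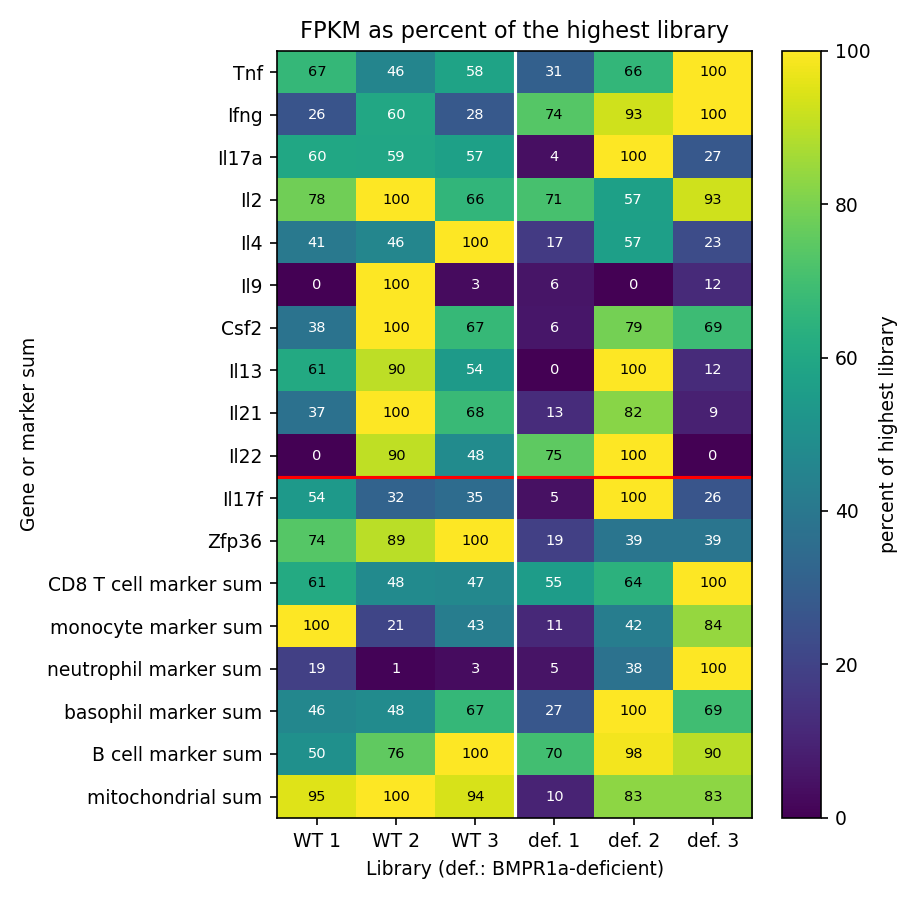
Each library's FPKM as a percent of the highest library, for the 10 cytokine genes (above the red line) and for Il17f, Zfp36 and summed markers of other cell types and mitochondrial transcripts (below it). Il9 is confined largely to WT replicate 2, Il17a and Il17f share the low replicate 1 and high replicate 2 of the deficient group, and Tnf follows the monocyte marker sum within each group.

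The receptors of these cytokines ranged from 0 to 333 FPKM in their mean over the 6 libraries. Of 19 receptor genes found, 15 passed the filter, and 1 was higher and 0 were lower in deficient aTreg (limma). Over all genes tested 0.746% were higher and 0.321% lower. At an unadjusted p under 0.05 there were 5 receptor genes (limma), against 15.2% of all genes tested. The median log2 fold change was 0.03 for the receptors, beside 0.04 over all genes tested. Tnfrsf1b, the TNF receptor that regulatory T cells are known for, rose: it was at 53.97, 35.97 and 35.81 FPKM in WT and at 98.03, 102.2 and 111.7 in deficient aTreg. The log2 fold change was 1.31 (SE 0.182, limma adjusted p = 0.0410), and the call was lost in the fit without the filter on low values (limma adjusted p = 0.0636). The IL-2 receptor chains Il2rg and Il2rb were at 167 to 397 and at 255 to 357 FPKM over the 6 libraries, against at most 1.66 FPKM of Il2. Ifngr1, the ligand-binding chain for interferon gamma, was at 190.7, 229.6 and 231.5 FPKM in WT and at 49.8, 136.3 and 148.4 in deficient aTreg. That places every deficient library below every WT library, opposite to Ifng itself, but the difference did not pass the threshold (log2 fold change -1.10, limma adjusted p = 0.311). Without BMPR1a-deficient replicate 1 the log2 difference was -0.60. Il21r was at 59.3 to 98.1 FPKM. Receptors with little RNA in these cells, picked after their values were seen, included Il17rc and Il13ra1, under 1 FPKM in every library, Il13ra2, listed at 0 in 5 libraries, and Il22ra2, listed at 0 in all 6.

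The 15 receptors included 3 with every deficient library above every WT library and 5 with every one below, where 15.9% and 10.4% of all genes tested did so. Picked after their values were seen, Il4ra was at 39.6, 40.8 and 44.4 FPKM in WT and 25.5, 29.8 and 25.1 in deficient aTreg (log2 fold change -0.62, limma adjusted p = 0.0702). Il9r was at 0.668, 1.05 and 0.845 FPKM in WT and 3.00, 1.92 and 2.17 in deficient aTreg (0.85, limma adjusted p = 0.0978; 0.72 without BMPR1a-deficient replicate 1).

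**Figure D5:**
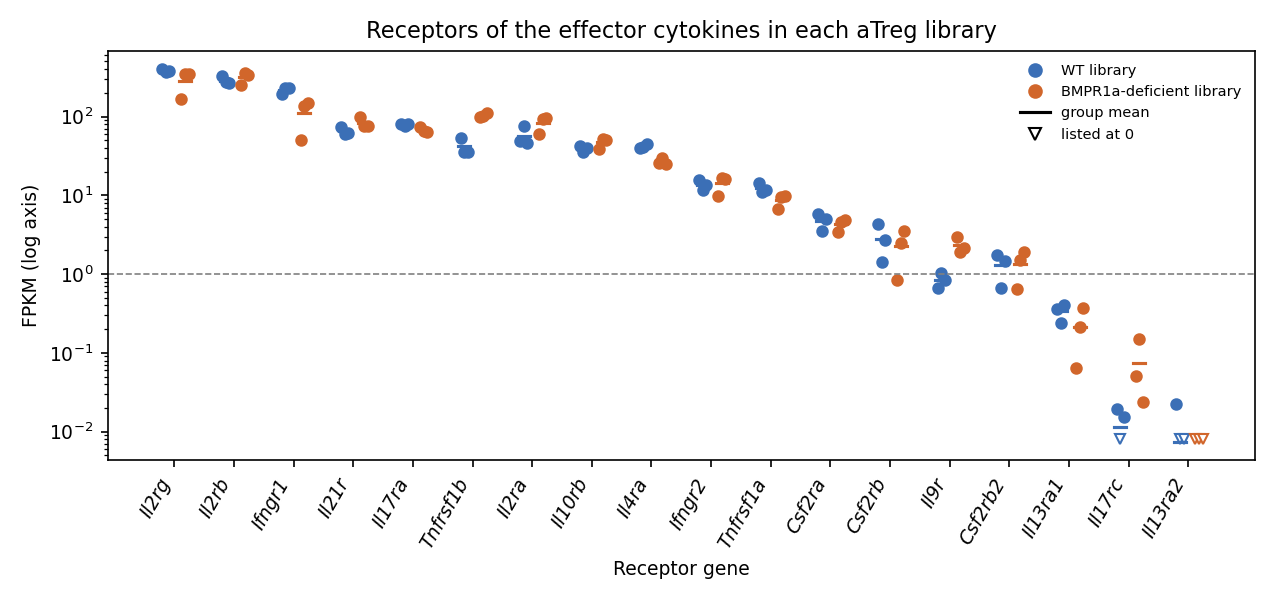
FPKM (log axis) of the cytokine receptor genes with a value above 0, in each library, ordered by their mean; short lines are group means and open triangles mark values listed at 0. Il2rg and Il2rb are highest, and Tnfrsf1b is the receptor gene that passed the threshold.

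Transcription factors that direct these cytokines were expressed in both groups. Of 19 tested lineage factors 1 was higher and 0 were lower (limma, 7 at an unadjusted p under 0.05, median log2 fold change 0.25). Over all genes tested 0.746% were higher and 0.321% lower (limma, 15.2% at an unadjusted p under 0.05, median 0.04). The higher one was Stat5a, a signal transducer of the IL-2 receptor (log2 fold change 0.73, limma adjusted p = 0.0399). Stat3, which carries the signal of interleukins 6 and 21, was at 140.4, 135.3 and 135.7 FPKM in WT and at 170.5, 160.4 and 159.0 in deficient aTreg. Its groups did not overlap, and it did not pass the threshold (log2 fold change 0.25, limma adjusted p = 0.305). Tbx21, which encodes the Th1 factor T-bet and was picked for its role, was at 10.8, 9.92 and 7.14 FPKM in WT and at 14.1, 11.3 and 12.2 in deficient aTreg. Its groups did not overlap, as with Ifng, and it did not pass the threshold (log2 fold change 0.41, limma adjusted p = 0.334; 0.33 without BMPR1a-deficient replicate 1). Other Th1 factors, picked after their values were seen, went the other way. Stat4, which carries the signal of interleukin 12, was at 69.2, 73.8 and 74.9 FPKM in WT and at 22.0, 41.6 and 47.7 in deficient aTreg, with every deficient library below every WT library (log2 fold change -1.02, limma adjusted p = 0.189). Eomes, a relative of Tbx21, was at 5.40, 6.16 and 9.24 FPKM in WT and at 2.45, 7.58 and 4.72 in deficient aTreg, with overlapping groups (-0.49, limma adjusted p = 0.546). Of 16 tested activation-induced factors 0 passed (limma, 4 at an unadjusted p under 0.05 beside the 15.2% of all genes, median 0.03). Among these Nfkb1 was at 135.4 to 161.4 FPKM and Junb at 104.3 to 113.4 in WT and 57.2 to 91.6 in deficient aTreg, where replicate 1 was the lowest.

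The proteins that bind cytokine messages bear on the AU-rich sites shown above. Of 13 tested regulators of cytokine mRNA stability 0 passed the threshold (limma, 3 at an unadjusted p under 0.05, median log2 fold change -0.02). Over all genes tested 1.07% passed (limma, 15.2% at an unadjusted p under 0.05, median 0.04). Zfp36, which encodes tristetraprolin, was at 81.1, 98.6 and 110.2 FPKM in WT and at 21.0, 42.6 and 43.0 in deficient aTreg, so that every deficient library lay below every WT library (log2 fold change -1.48, SE 0.301, limma adjusted p = 0.0995). Without BMPR1a-deficient replicate 1 the log2 difference was -1.14. Arid5a, which encodes a protein that stabilizes some cytokine messages and was picked after its values were seen, was at 85.4, 80.7 and 72.1 FPKM in WT and 52.8, 48.5 and 54.2 in deficient aTreg (log2 fold change -0.60, limma adjusted p = 0.0727). Zfp36l2, a relative of Zfp36, was at 59.3 to 111.4 FPKM and Hnrnpd, which encodes the AU-rich element binding protein AUF1, at 207 to 273, both with overlapping groups.

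Other T cell cytokines were read as well, and some were at higher levels in these libraries. The part of other cell types in their values was not tested. Of 23 genes found, 14 were tested and 0 passed (limma, 4 at an unadjusted p under 0.05, median 0.01). Over all genes tested 1.07% passed (limma, 15.2% at an unadjusted p under 0.05, median 0.04). Ltb, which encodes lymphotoxin beta and lies beside Tnf on chromosome 17, was at 295 to 351 FPKM, far above Tnf in every library. Lta, on the other side of Tnf from Ltb, was at 13.6, 24.3 and 11.0 FPKM in WT and 15.1, 21.7 and 22.0 in deficient aTreg. Il16 was at 84.0 to 101.3 FPKM and Tgfb1 at 63.3 to 82.9. Of the neighbours of Il4, Il13 and Csf2 on chromosome 11, Rad50 was at 10.8 to 18.4 FPKM, Il3 at 0 to 0.601 and Il5 was listed at 0 in 5 libraries.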

How the data were processed

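RNA was sequenced in 6 libraries, 3 per group. The deposited values are FPKM, 1 column per library, made with TopHat2, Cufflinks and Cuffdiff on GRCm38.p4, per the submitters' processing notes. For the versions, settings, strand handling, annotation and any scaling between libraries: not given in the sources used here. The labels name no batch. GENCODE M21 (GRCm38) matched 24876 of 25759 identifiers (96.6%), and 883 have no symbol. Each column's name matches 1 sample.

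The comparison used limma 3.58.1 (R 4.3.3). Its input was log2(FPKM + 1) of genes whose mean over the 6 libraries was at least 1 FPKM, and its model had the group alone, with a trended eBayes step. Two-sided p-values were adjusted by Benjamini-Hochberg and called at 0.05. Fold changes on this scale understate the change of low genes. FPKM hold no counts, so depth was estimated from the smallest step of FPKM times length in genes with 1 coding transcript, searched between 0.01 and 0.1. Numbers of fragments are FPKM times transcript length times that depth and are approximate. A value listed as 0 may reflect an estimate that failed. The fit was tested on simulated data, in which 2.1% of its 143 calls were not changed.

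The members and gene lists were chosen with earlier results of these data known. Named are all 10 cytokines, Bmpr1a, up to 4 called genes and up to 4 of the highest of each list, neighbours of the cytokine genes and the 2 nearest profiles of each tested cytokine. Marker genes of other cell types were picked from their lists after their values were seen, and other genes picked that way are marked in the text. The alternatives varied the pseudocount, filter, scaling, eBayes settings, sample weights, replicate block and the libraries used. Promoter sequences are from RefSeq (GRCm38.p6) and untranslated regions from GENCODE transcripts.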

Additional observations from a re-analysis of the deposited data

How the results depend on the processing

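The 4 tested cytokines stayed on their side of the threshold under every alternative that tested them, except Ifng with sample weights, where the number of cytokines called higher was 1. The log2 fold change of Ifng stayed positive, from 0.83 to 1.28. Leaving out 1 library gave -0.2496 to 0.4649 for Tnf and -0.1873 to 0.0068 for Il2. Il17a moved to -1.0858 with a pseudocount of 0.1. Signs turned for Il17a with sample weights (0.0997), for Tnf without WT replicate 2 (-0.049) and without BMPR1a-deficient replicate 3 (-0.25), and for Il2 without WT replicate 2 (0.0068) and without BMPR1a-deficient replicate 2 (0.0060), and the cause was not tested. Over all genes, 100 were higher and 43 lower. Sample weights gave 833 and 407, a replicate block 5 and 5, quantile normalization 70 lower and a filter at a mean of 5 FPKM, which tests fewer genes, 27 lower. Leaving out 1 library gave 10 to 134 higher and 4 to 76 lower, with fewer samples in each fit. Calls that were higher made up 69.9%, and 55.7% with quantile normalization.

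Replicate numbers were shared by the groups, and whether same-numbered libraries were paired is not known. Deviations of same-numbered libraries from their group means correlated at 0.0103, 0.0645 and 0.0518. Of 6 libraries, 4 correlated best with their own number in the other group. With 3 libraries per group these correlations cannot decide the question. With the replicate block 0 cytokines passed (limma). Depth limits Il22, Il9, Il13, Il21 and Csf2, which rest on about 0 to 38 fragments per library.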

Other observations

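Some other cytokine genes were near the floor of the table. Il6 was at 1.07, 1.39 and 1.38 FPKM in WT and at 0.165, 1.13 and 0.682 in BMPR1a-deficient aTreg. Its lowest library was BMPR1a-deficient replicate 1, as for Il17a. Il10, which encodes the suppressive cytokine of many regulatory T cells, was at 0.589, 0.555 and 0.383 FPKM in WT and at 0.288, 1.23 and 0.702 in deficient aTreg. Areg, which encodes the repair factor amphiregulin, was at most 0.118 FPKM in any library. Tnfsf11, which encodes the osteoclast factor RANKL, was at 7.67, 14.9 and 6.15 FPKM in WT and at 21.8, 17.2 and 20.5 in deficient aTreg. Like Ifng it was highest in replicate 2 among the WT libraries, with every deficient library above every WT library, and it did not pass the threshold (log2 fold change 1.06, limma adjusted p = 0.195). Tnfsf11, Il6, Il10 and Areg were picked after their values were seen.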
